A study of Mus musculus with 14 samples.

Results

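The 9 nuclear genes Mtif2, Mtif3, Tufm, Tsfm, Gfm1, Mtrf1, Mtrf1l, Mrrf and Gfm2 encode the factors that start, extend, end and reset protein synthesis inside mitochondria. They were chosen by name, as the initiation, elongation, release and recycling factors of that system, and all 9 of the 53735 gene symbols were present and passed the low-count filter in both count tables. RNA was measured in 14 hearts of male C57BL/6 mice. Knockout hearts (cKO, genotype Fam210a fl/fl, alphaMHCMCM/+) carried floxed Fam210a alleles and a tamoxifen-activated Cre driven by the cardiomyocyte alphaMHC promoter. Control hearts (alphaMHCMCM/+) carried the Cre transgene alone, and both genotypes received tamoxifen. Early hearts (4 cKO and 4 control) were taken about 5 weeks after tamoxifen, when heart function was described as normal, and late hearts (3 cKO and 3 control) about 10 weeks after it, when function was described as severely defective. Fam210a was deleted in cardiomyocytes only, so the whole-heart RNA also held the transcripts of untargeted cells. The labels read here state neither the age of the mice nor any pooling.

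Mitochondria translate a small set of respiratory chain subunits from their own genome on their own ribosomes, and every protein factor for this is imported from the cytosol. Mtif2 encodes the initiation factor that places the formylated initiator tRNA on the ribosome, and Mtif3 encodes a second initiation factor that acts on the small subunit. Tufm encodes EF-Tu, which delivers charged tRNAs, Tsfm encodes EF-Ts, which reloads EF-Tu with GTP, and Gfm1 encodes the translocase EF-G1. Mtrf1l encodes the release factor for the standard stop codons and Mtrf1 its close relative. Mrrf, the ribosome recycling factor, works with Gfm2, the EF-G2 GTPase, to split the ribosome after release. The FAM210A protein lies in mitochondria and has been reported to bind EF-Tu, and cardiomyocytes depend heavily on the respiratory chain. The comparison asks how the messages of these factors stood before and after heart function declined.

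The genes lie on separate stretches of 8 chromosomes (GRCm38, GENCODE M21). Promoters are shown for the 4 genes called lower late and for 2 others, and shared regulation was not tested. Tufm spans chromosome 7 from 126487361 to 126490731 on the plus strand with 9 merged exons, and no other annotated gene overlaps it. The windows below run from 250 bases before to 50 bases after the RefSeq start (RefSeq, GRCm38.p6), 5′ to 3′ on the gene's strand, and 8 of the 9 genes had an entry, all but Mtif3. Capitals mark matches on either strand to 5 motifs, which are CCGGAAG (GABP/ETS), the NRF1 palindrome, CAAGGTCA (a single ERR site), TGATGNAA (ATF4 core) and GCCATNTTG (YY1). No matches overlapped each other. The first 4 are the genes called lower in late cKO hearts, and Gfm1 and Gfm2 are the pair of G factors that were not.
Tufm (chr7:126487105-126487404, plus strand): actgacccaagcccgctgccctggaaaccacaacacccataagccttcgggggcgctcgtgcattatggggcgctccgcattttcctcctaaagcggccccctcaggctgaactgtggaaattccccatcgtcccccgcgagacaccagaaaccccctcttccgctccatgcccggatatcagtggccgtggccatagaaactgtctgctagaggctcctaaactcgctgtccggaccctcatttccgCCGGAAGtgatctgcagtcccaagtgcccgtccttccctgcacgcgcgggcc
Mtif2 (chr11:29526147-29526446, plus strand): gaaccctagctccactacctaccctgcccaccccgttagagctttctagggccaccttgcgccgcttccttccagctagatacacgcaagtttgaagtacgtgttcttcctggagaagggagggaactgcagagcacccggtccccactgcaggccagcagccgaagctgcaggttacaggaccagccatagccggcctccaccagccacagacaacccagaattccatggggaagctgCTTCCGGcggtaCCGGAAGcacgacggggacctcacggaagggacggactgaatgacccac
Mtrf1l (chr10:5823894-5824193, minus strand): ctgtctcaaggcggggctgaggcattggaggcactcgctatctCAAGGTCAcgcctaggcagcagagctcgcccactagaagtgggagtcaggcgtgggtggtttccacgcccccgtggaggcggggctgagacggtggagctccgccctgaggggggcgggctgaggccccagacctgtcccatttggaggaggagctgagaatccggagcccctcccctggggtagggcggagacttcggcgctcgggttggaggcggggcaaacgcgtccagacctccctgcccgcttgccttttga
Tsfm (chr10:127030765-127031064, minus strand): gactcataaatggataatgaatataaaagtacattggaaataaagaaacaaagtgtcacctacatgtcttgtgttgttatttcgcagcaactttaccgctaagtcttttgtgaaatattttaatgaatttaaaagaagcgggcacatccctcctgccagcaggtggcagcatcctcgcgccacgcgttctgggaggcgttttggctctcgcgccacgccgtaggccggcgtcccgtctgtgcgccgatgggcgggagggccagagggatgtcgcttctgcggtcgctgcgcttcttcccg
Gfm1 (chr3:67429865-67430164, plus strand): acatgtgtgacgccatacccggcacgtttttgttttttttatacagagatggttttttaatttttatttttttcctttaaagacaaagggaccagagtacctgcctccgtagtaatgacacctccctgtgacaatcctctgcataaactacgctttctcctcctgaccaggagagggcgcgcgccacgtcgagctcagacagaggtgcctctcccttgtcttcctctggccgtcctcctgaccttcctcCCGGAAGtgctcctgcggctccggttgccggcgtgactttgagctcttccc
Gfm2 (chr13:97137687-97137986, plus strand): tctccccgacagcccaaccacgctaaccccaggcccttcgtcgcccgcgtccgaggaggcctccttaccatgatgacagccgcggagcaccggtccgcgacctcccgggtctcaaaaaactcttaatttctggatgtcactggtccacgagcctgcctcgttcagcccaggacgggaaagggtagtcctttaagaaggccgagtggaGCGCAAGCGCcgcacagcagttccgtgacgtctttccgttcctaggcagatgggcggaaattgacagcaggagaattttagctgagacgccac
CCGGAAG was present in the windows of Tufm, Mtif2 and Gfm1, 3 of 8, against 8.86% of 32817 mouse promoter windows. In Tufm it began at position -2 and in Gfm1 at -1, so it covered the start in both, and Mtif2 held it in both orientations, from -11 and from 2. The NRF1 letters were in Gfm2 alone (4.59% of all windows) and the ERR letters in Mtrf1l alone (1.56%). The ATF4 core (3.97% of all windows) and the YY1 letters (2.50%) were in none of the 8. Over all windows the median GC content was 52.7%. Among the genes called lower it was 61.7% in Tufm, 60.7% in Mtif2, 67.3% in Mtrf1l and 51.7% in Tsfm, and among the others shown it was 52.0% in Gfm1 and 60.0% in Gfm2. Of the genes called lower, Tufm and Mtif2 held CCGGAAG, and Mtrf1l and Tsfm did not. Of those that did not pass the test, Gfm1 held it, and Gfm2, Mtrf1 and Mrrf did not. A link between the motif and the late changes was not tested.

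The libraries held 15657298 to 19466469 counts early and 29989076 to 35750964 late. Fam210a itself stood at 135 to 158 CPM (counts per 1000000 counts of a library) in early cKO hearts and 165 to 178 in controls (log2 fold change -0.22, adjusted p = 0.17), and at 64.6 to 70.8 against 120 to 134 CPM late (-0.94, adjusted p = 6.5e-05). The title of early cKO replicate 4 calls it a knockout, whereas its genotype field reads as control, and the title was followed. The early cKO range of Fam210a, which lies below every control, includes this heart. Of all genes tested early, 5.65% had groups that did not overlap. Over all genes, 83 were called early, 181 without this heart and 162 with it counted as a control. Leaving out any other early heart gave 45 to 92. Which label is right was not tested. In late cKO hearts, replicate 3 was unlike the others: its mean chi-square over genes was 102 to replicate 1 and 97.0 to replicate 2, where replicates 1 and 2 differed by 20.9. All 10 cardiomyocyte markers were abundant. Their summed level was 70179 to 74474 CPM in early cKO hearts against 77701 to 86666 in controls, and 64284 to 76686 against 80377 to 94610 late, with 1 of 10 up and 5 down past the test. Late, all 6 endothelial markers fell (summed 344 to 414 against 844 to 1036 CPM), as did 6 of 8 macrophage markers, while all 5 red blood cell markers rose (196 to 377 against 42.7 to 74.2 CPM), and lymphocyte markers summed to at most 2.10 CPM. Of 8 fibroblast markers, 1 rose and 4 fell late (summed 990 to 1462 against 1260 to 1689 CPM). Of 6 smooth muscle and pericyte markers, 1 rose and 5 fell late. Their sum was 1554 to 2293 CPM in late cKO and 1179 to 1312 in late control hearts. The marker that rose was Acta2, at 993 to 1881 CPM in late cKO against 173 to 227 in late control hearts. The 5 atrial markers summed to 1751 to 2890 CPM in late cKO and 131 to 948 in late control hearts (1 rose and 1 fell). Most of that late cKO sum was Nppa, at 1734 to 2623 CPM against 93.8 to 566 in late controls. For Myl7, Myl4, Sln and Bmp10 the late cKO and control ranges overlapped. Early, the atrial sum was 57.6 to 1480 CPM in cKO against 62.2 to 334 in control hearts. Of all genes tested late, 31.8% were called higher and 33.2% lower. The part these marker shifts play in the results on the translation factors was not tested. In bulk tissue, fewer cells of a type and less RNA per cell cannot be told apart.

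Early, while heart function was described as normal, none of the 9 translation factors changed past the test. Background was low too, with 0.613% of 13529 tested genes called. DESeq2 and limma-voom also called none, and no member had an unadjusted p under 0.05 in edgeR. The cKO and control ranges overlapped for all 9, where 5.65% of all tested genes had groups that did not overlap. The log2 fold changes of 8 factors were below 0 (49.9% of all tested genes were), with a median of -0.06 over the 9 and 0.00 over all genes.

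Tufm, the EF-Tu gene, stood at 96.3, 93.0, 95.1 and 91.4 CPM in early cKO replicates 1 to 4 and at 98.3, 94.4, 116 and 105 CPM in control replicates 1 to 4. The groups overlapped only through control replicate 2, and control replicate 3 was the highest heart. The log2 fold change was -0.14 (SE 0.07, n = 4 each, edgeR adjusted p = 0.502), and -0.08 without control replicate 3. Tsfm, the partner of Tufm, read 25.5, 25.3, 27.6 and 24.0 CPM in cKO and 27.2, 26.8, 33.5 and 27.4 CPM in control hearts. The same control heart was highest for Tsfm, whose log2 fold change was -0.16 (SE 0.08, adjusted p = 0.532), or -0.08 without that heart. Of the remaining factors, Mrrf was the only one with a positive value (0.09, SE 0.06, adjusted p = 0.673), and the other 6 lay between -0.06 and -0.01. The values of Gfm1, Mtif2, Mtrf1 and Mtrf1l crossed 0 when early cKO replicate 4 or control replicate 3 was left out or replicate 4 was counted as a control.

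Late, when heart function was impaired, 4 of the 9 factors fell and none rose: Tufm, Mtif2, Mtrf1l and Tsfm. Tufm had the lowest fold change of the 9, and Gfm1, Mtif3, Mtrf1 and both recycling factors did not pass the test. This split depends on the scaling. With upper-quartile scaling Gfm1, Mtif3, Mtrf1 and Mrrf were also called lower (edgeR adjusted p = 0.00617, 0.0226, 0.0197 and 0.0384). At this time 65.0% of 14942 tested genes were called and 33.2% were called lower in cKO, so the count of 4 of 9 does not set the factors apart from other genes. Every cKO heart was below every control for 6 factors, the 4 above with Gfm1 and Mtrf1, where 35.9% of tested genes had every cKO heart lower and 69.8% had groups that did not overlap either way. The log2 fold change was below 0 for 8 of the 9 (50.6% of all genes), with a median of -0.27 against -0.02 over all genes.

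**Figure D1:**
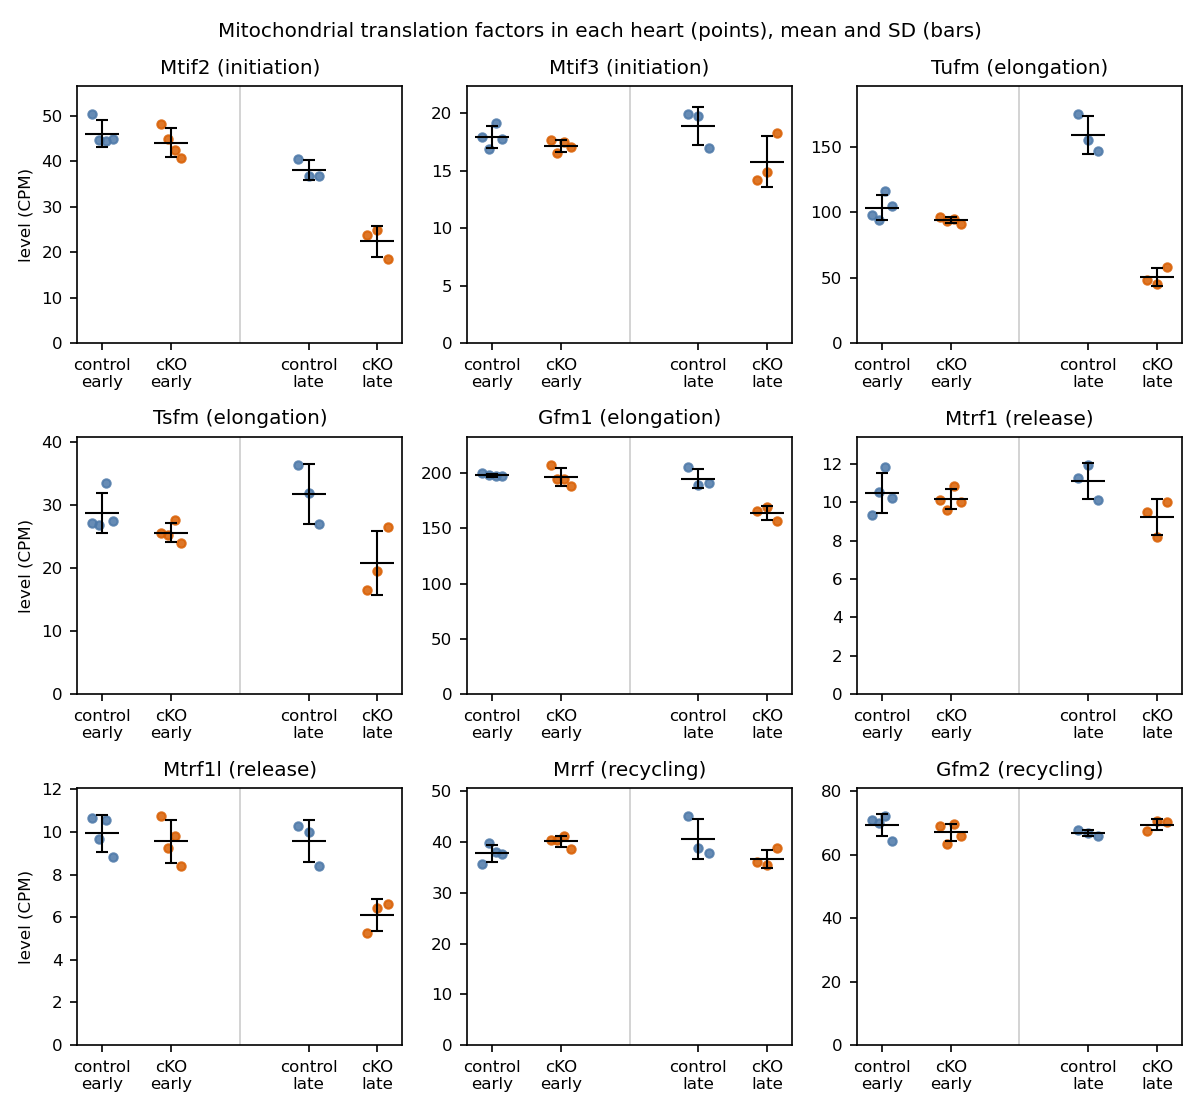
Level of each factor in CPM (linear axis from 0) in each heart (points), with the group mean and SD (bars), control in blue and cKO in orange, early on the left and late on the right of each panel. The early groups overlap in all 9 panels, and late Tufm lies at 44.8 to 58.3 CPM in cKO against 147 to 176 CPM in control hearts.

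Of the initiation factors, Mtif2 fell and Mtif3 did not pass the test. Mtif2 stood at 23.7, 24.9 and 18.5 CPM in late cKO replicates 1 to 3 and at 40.5, 36.7 and 36.6 CPM in control replicates 1 to 3. The groups did not overlap, and cKO replicate 3 was the lowest heart. The log2 fold change was -0.76 (SE 0.14, n = 3 each, adjusted p = 0.00103), a 1.70-fold lower level. Mtif3 stood at 14.2, 14.9 and 18.3 CPM in cKO and at 20.0, 19.7 and 17.0 CPM in control hearts. Here cKO replicate 3 was the highest of its group and lay within the control range, the opposite of its place for Mtif2. The log2 fold change of Mtif3 was -0.26 (SE 0.14, adjusted p = 0.129), and -0.37 (adjusted p = 0.017) without cKO replicate 3. The exons of Mtif3 share 1505 bases with Gtf3a on the other strand, which rose late by 0.55 on the log2 scale (adjusted p = 0.0322), and the kit does not mark which strand a read came from.

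Of the elongation factors, Tufm and Tsfm fell and Gfm1 did not pass the test. Tufm stood at 48.3, 44.8 and 58.3 CPM in late cKO replicates 1 to 3 and at 176, 155 and 147 CPM in control replicates 1 to 3. The highest cKO heart was far below the lowest control. The mean was 50.5 ± 7.01 CPM in cKO and 159 ± 14.9 CPM in control hearts (SD, n = 3), a 3.15-fold lower level (log2 fold change -1.66, SE 0.14, adjusted p = 1.06e-05). Of all genes tested late, 11.1% had a log2 fold change at or below that of Tufm. The call held under all 13 alternatives, with log2 fold changes from -1.83 to -1.57 and adjusted p of at most 0.00029. Tsfm stood at 16.5, 19.6 and 26.5 CPM in cKO and at 36.4, 31.9 and 27.0 CPM in control hearts. The groups were separate only by the gap between cKO replicate 3 and control replicate 3. Its log2 fold change was -0.61 (SE 0.19, adjusted p = 0.0176), and the call was lost without cKO replicate 1, cKO replicate 2 or control replicate 1 (adjusted p = 0.0575, 0.0627 and 0.0749).

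The Tsfm value carries a further limit. Tsfm is a minus-strand gene (chromosome 10, 127011572 to 127030840). It shares 165 exonic bases, from 127011699 to 127011863, with the actin-binding protein gene Avil on the other strand. In late hearts Avil stood at 200 to 236 CPM in cKO and 1.30 to 4.08 CPM in control, a 96.9-fold rise (adjusted p = 2.49e-06), against 1.95 to 2.66 and 1.59 to 2.39 CPM early. The shared stretch touches coding sequence of Tsfm, and without strand information its reads cannot be told apart. Avil is named here for its position only.

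Gfm1, the gene of the translocase EF-G1, stood at 166, 169 and 157 CPM in late cKO and 205, 189 and 191 CPM in control hearts. The groups did not overlap, and the difference was small, with a log2 fold change of -0.25 (SE 0.10, adjusted p = 0.0578). With total counts or upper-quartile scaling it passed (adjusted p = 0.0191 and 0.00617).

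Of the release factors, Mtrf1l fell and Mtrf1 did not pass the test. Mtrf1l stood at 5.24, 6.42 and 6.61 CPM in late cKO and at 10.3, 10.0 and 8.43 CPM in control hearts. No cKO heart reached the lowest control. The log2 fold change was -0.65 (SE 0.16, adjusted p = 0.00541), a 1.57-fold lower level, and the call held under all 13 alternatives. It rests on few reads, with 174 to 318 counts in the 6 late hearts. Mtrf1 stood at 9.48, 8.19 and 10.0 CPM in cKO against 11.3, 12.0 and 10.1 CPM in control hearts. The highest cKO and lowest control heart nearly met, and the log2 fold change was -0.27 (SE 0.14, adjusted p = 0.117).

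The recycling factors had the smallest late fold changes of the 9. Gfm2 stood at 67.4, 70.8 and 70.3 CPM in late cKO and at 67.7, 66.9 and 65.8 CPM in control hearts, with overlapping groups. Its exons share 615 bases with a neighbouring gene not analysed here. The log2 fold change of Gfm2 was 0.06 (SE 0.10, adjusted p = 0.635), the only positive value late with this scaling, and was -0.11 with upper-quartile scaling and -0.02 with total counts. Mrrf stood at 36.1, 35.4 and 38.8 CPM in cKO and at 45.2, 38.8 and 37.9 CPM in control hearts. Control replicate 1 was the highest, and the log2 fold change of -0.14 (SE 0.12, adjusted p = 0.3) was -0.05 without it. Mrrf shares 385 exonic bases with Rbm18 on the other strand, whose late log2 fold change was -0.04 (adjusted p = 0.751).

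**Figure D2:**
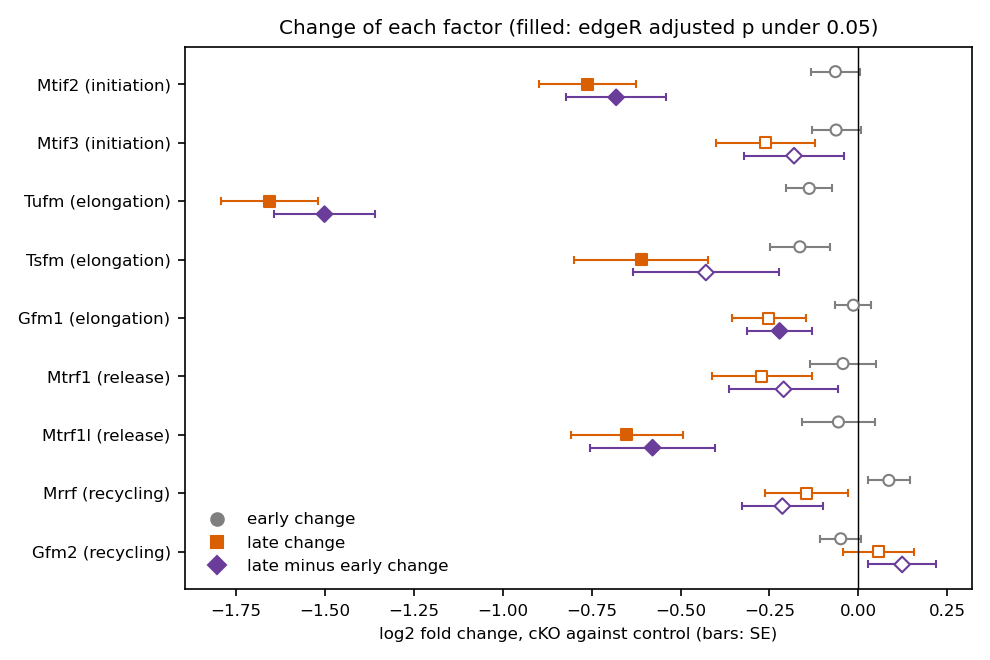
Log2 fold change of cKO against control for each factor (points) with its SE (bars), early in grey, late in orange and the late minus early difference in purple, filled where edgeR's adjusted p was under 0.05. Tufm lies furthest to the left late (-1.66) and in the difference (-1.50), and no early point is filled.

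The changes late and early were compared in 1 model of all 14 libraries, where 61.2% of 14555 genes had a change that differed between the times, 31.3% toward lower late. Of the factors, 4 differed, all toward lower late. For Tufm the difference was -1.50 on the log2 scale (SE 0.14, adjusted p = 2.54e-07), for Mtif2 the difference was -0.68 (SE 0.14, adjusted p = 0.000618) and for Mtrf1l -0.58 (SE 0.17, adjusted p = 0.00937). These 3 calls held under all 22 alternatives. The Gfm1 difference was -0.22 (SE 0.09, adjusted p = 0.0489), at the threshold, and was lost in 16 of the 22. Tsfm, called late, had a difference of -0.43 (SE 0.20, adjusted p = 0.0815), so its late and early changes were not shown to differ, except with upper-quartile scaling, with total counts, without late cKO replicate 3 or without late control replicate 3 (adjusted p from 0.00315 to 0.0407). Gfm2 differed by 0.12, Mtif3 by -0.18, Mtrf1 by -0.21 and Mrrf by -0.21, with adjusted p of 0.117 to 0.283. With upper-quartile scaling Mtif3, Mtrf1 and Mrrf passed (edgeR adjusted p = 0.0284, 0.0290 and 0.00477). Mrrf also passed with total counts (adjusted p = 0.0233), and Mtif3 without late cKO replicate 3 (adjusted p = 0.0340). Early and late hearts are separate tables, so their levels were not set against each other.

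Ratios of 2 factors within 1 heart do not depend on the scaling between libraries. Tufm and Tsfm, Mtif2 and Mtif3, and Mtrf1 and Mtrf1l each belong to the same step, while Gfm1 and Gfm2 are related G factors of elongation and recycling. The Tufm to Tsfm count ratio was 2.20 to 2.93 in late cKO hearts and 4.82 to 5.44 in late controls, a difference of -1.03 on the log2 scale. The Gfm1 to Gfm2 ratio was 2.23 to 2.46 against 2.82 to 3.03 (-0.31), and the Mtif2 to Mtif3 ratio was 1.01 to 1.67 against 1.86 to 2.15 (-0.51). The Mtrf1 to Mtrf1l ratio was 1.27 to 1.81 in cKO and 1.09 to 1.20 in control hearts (0.38). None of the 4 late ratios overlapped between the groups. Each had an exact two-sided permutation p of 0.1, the smallest that 3 against 3 hearts allow (adjusted p = 0.2 over 8 comparisons). Of all genes tested late, 69.8% had groups that did not overlap. No such share was computed for ratios of 2 genes, so the separation does not set these pairs apart. Without late cKO replicate 3, whose Mtif2 to Mtif3 ratio was the lowest, the Mtif2 to Mtif3 difference was -0.27, and without late cKO replicate 1 the Mtrf1 to Mtrf1l difference was 0.25. Early, all 4 ratios overlapped between the groups, with differences of at most 0.03 and exact permutation p of 0.543 to 0.914 (adjusted p of 0.8 to 0.914). The early Tufm to Tsfm ratio was 3.44 to 3.80 in cKO and 3.47 to 3.82 in control hearts.

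**Figure D3:**
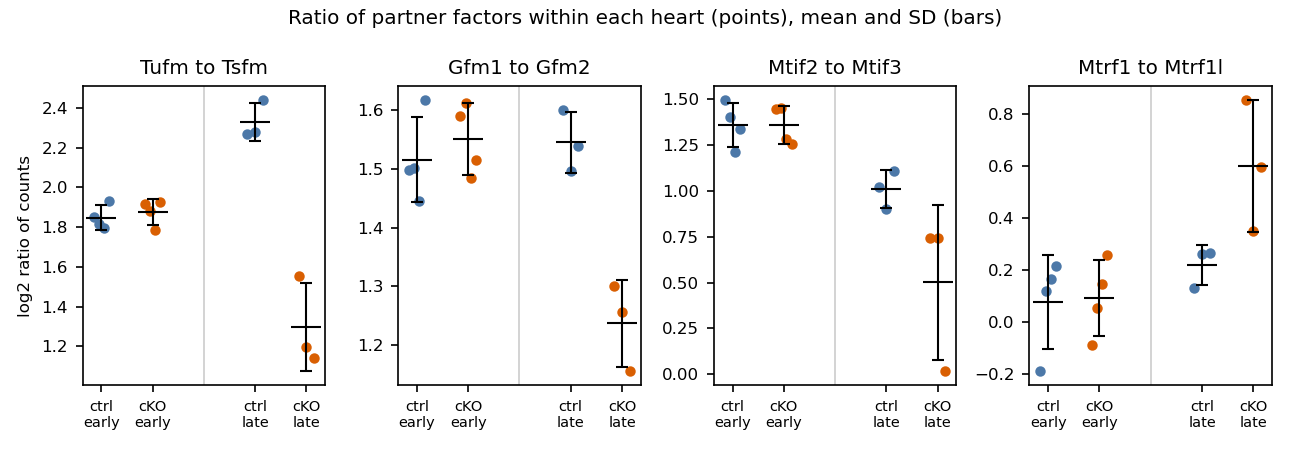
Log2 ratio of the counts of partner factors within each heart (points), with group mean and SD (bars), control in blue and cKO in orange, on axes that do not start at 0. The early groups overlap in all 4 panels, and the late cKO hearts lie below control for Tufm to Tsfm, Gfm1 to Gfm2 and Mtif2 to Mtif3 and above it for Mtrf1 to Mtrf1l.

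Per kilobase of the annotated principal transcript, the elongation genes Tufm and Gfm1 had the highest levels of the 9 in both groups and at both times. In late controls Tufm stood at 94.8 ± 8.85 CPM per kb, Gfm1 at 47.9 ± 2.17, Tsfm at 26.4 ± 3.93 and Gfm2 at 21.2 ± 0.296 (SD, n = 3). Mrrf at 15.5 ± 1.53 and Mtif2 at 13.8 ± 0.802 followed, with overlapping intervals of mean ± SD. Mtrf1 stood at 6.19 ± 0.515, and Mtif3 at 3.83 ± 0.332 and Mtrf1l at 3.70 ± 0.387 CPM per kb were within their SD of each other. In late cKO hearts Gfm1, at 40.2 ± 1.60 CPM per kb, stood above Tufm at 30.1 ± 4.18. Gfm2 at 22.0 ± 0.577 and Tsfm at 17.3 ± 4.24 had also changed places, though their intervals of mean ± SD just overlapped. Early, Tufm led in both groups (61.6 ± 5.64 in control and 56.0 ± 1.31 CPM per kb in cKO), ahead of Gfm1 (48.6 ± 0.36 and 48.1 ± 2.01). In early controls the intervals of mean ± SD of Tsfm (23.8 ± 2.61) and Gfm2 (22.0 ± 1.13 CPM per kb) overlapped. The order below Gfm1 depends on the length used, since over all annotated exons Gfm2 ranks behind Tsfm, Mtif2 and Mrrf in controls, and Mtif2 ranks above Tsfm in early controls. The summed level of the 9 genes was 571 ± 36.9 CPM in late control and 395 ± 8.51 CPM in late cKO hearts, or 412 ± 22.1 and 344 ± 5.36 CPM without Tufm.

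The other genes of mitochondrial translation moved in both directions late and, with 0 called in any of the lists, did not change early past the test. Of 77 tested genes listed by a mitoribosomal protein symbol (Mrpl, Mrps or Dap3), 17 rose and 18 fell late, with a median log2 fold change of -0.05. Of all genes, 31.8% were called higher and 33.2% lower. The symbol alone does not show that each product is part of the mitoribosome. The small-subunit genes Mrps18b and Mrps10 rose 2.39-fold and 2.58-fold. Mrps36, listed by its symbol only, fell 4.15-fold and the large-subunit gene Mrpl18 fell 2.72-fold. Of 21 genes of mitoribosome assembly and rRNA modification, 2 rose and 8 fell (median -0.30). Mettl17, a small-subunit assembly factor, fell 2.48-fold and Mtg2, a GTPase of the large subunit, 2.37-fold, while the rRNA methyltransferase genes Mettl15 and Nsun4 rose 1.38-fold and 1.24-fold.

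Of 14 activators and membrane-insertion factors, 3 rose and 5 fell (median -0.22). Taco1, which activates synthesis of the mt-Co1 protein, fell from 31.4 ± 1.82 to 17.0 ± 1.56 CPM (SD, n = 3; adjusted p = 0.000179), and Ptcd3, a pentatricopeptide protein of the small subunit, fell 1.72-fold. Mief1, better known for mitochondrial fission, rose 1.24-fold and the RNA-binding Fastkd2 1.23-fold. Of 5 tested rescue and formyl-methionine genes, none rose and 2 fell (median -0.17). Metap1d, a methionine aminopeptidase, fell 1.90-fold and the deformylase Pdf 2.19-fold, the latter from 0.787 to 0.354 CPM.

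Of 20 mitochondrial aminoacyl-tRNA synthetase and amidotransferase genes, 3 rose and 6 fell late (median -0.10). The cysteinyl gene Cars2 fell from 39.8 ± 3.16 to 12.5 ± 1.27 CPM (adjusted p = 6.98e-06), a 3.19-fold fall near that of Tufm, and the histidyl gene Hars2 fell 2.15-fold. The amidotransferase subunit Gatc rose 1.54-fold and the arginyl gene Rars2 1.39-fold. Of 14 tested tRNA processing and modification genes, 6 rose and 5 fell (median 0.12). Trnt1, which adds the CCA end of tRNAs, rose 3.04-fold and the methyltransferase Nsun3 2.70-fold, while the methyltransferase Trmt5 fell 3.00-fold and Osgepl1 2.46-fold.

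Of the templates that the system reads, 7 of 13 mitochondrial-encoded mRNAs passed the low-count filter late, and none rose and 3 fell (median -0.38). These values leave out the other templates, and why those had few counts was not tested. The mt-Co1 mRNA fell 3.53-fold and mt-Nd4 1.73-fold. Of 20 nuclear genes for mitochondrial proteins outside translation, 2 rose and 8 fell (median -0.27, the same as that of the 9 factors). The chaperone Hspd1 rose 2.40-fold and the import receptor Tomm20 1.51-fold, and the complex II subunit Sdha and the helicase Twnk fell 1.81-fold and 1.65-fold. Cytosolic translation factors went the other way, with 15 of 20 up and 1 down (median 0.78). The release factor gene Etf1 rose 3.88-fold and the initiation factor subunit Eif2s2 4.36-fold, and Eef1a2, the muscle form of the cytosolic counterpart of EF-Tu, fell 1.87-fold. Eif2s2 was also the 1 gene of these 20 called early (log2 fold change 0.43, adjusted p = 0.0283; 0.517% of genes were called higher).

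**Figure D4:**
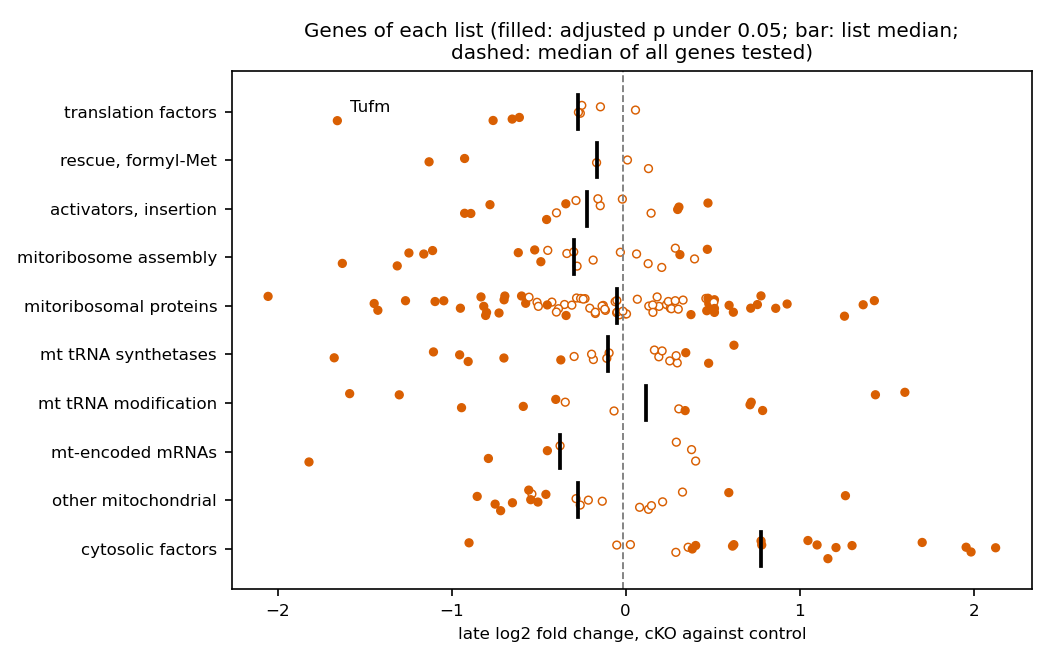
Late log2 fold change of cKO against control for each tested gene (points, filled where edgeR's adjusted p was under 0.05) in 10 gene lists, with each list's median (black bar) and the median of all genes tested (dashed line, -0.02). Tufm lies at -1.66, apart from the other 8 translation factors, and the cytosolic factors lie mostly to the right, with a median of 0.78.

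The genes whose log2 CPM followed Tufm most closely over the hearts were ranked among 10965 genes by the smaller of the Pearson correlations over the 8 early and the 6 late hearts. Ndufaf4 (0.96 early and 0.96 late), Ckm (0.96 and 0.98), Uqcrfs1 (0.96 and 0.98), Coq9 (0.96 and 0.98) and Aes (0.97 and 0.95) came first. All 5 were called lower late, so the late values contain the genotype difference, and hearts of a table share their libraries' scaling. The muscle creatine kinase gene Ckm had a late log2 fold change of -1.42 and Ndufaf4, of complex I assembly, -0.63. Among the other factors Tsfm was the most like Tufm (0.91 early and 0.87 late), and Gfm2 the least (0.39 and -0.70). These values are descriptions of the rank order, not tests.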

How the data were processed

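Messenger RNA of mouse hearts was sequenced after oligo-dT selection. Per the labels' protocols, libraries were made from 100 ng of total RNA with the TruSeq RNA kit V2 and read as single ends of 100 nt. Trimmomatic 0.36, STAR 2.6.0c and the build GRCm38 are listed per the submitters' processing notes. How reads were counted into genes was not given in the sources used here, nor whether strand was used. The deposited tables, 1 per time, hold raw read counts by gene symbol, and the values show no normalization by the authors.

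Genes were filtered by filterByExpr (at least 10 counts, total of 15), scaled by TMM and tested by quasi-likelihood in edgeR 4.0.16 (R 4.3.3). P-values were Benjamini-Hochberg adjusted over all tested genes, and genes under 0.05 were called. Each table was fitted alone, and a joint fit of all libraries gave the interaction of genotype and time. Adjusted p-values come from edgeR unless another tool is named, and the SE was derived from the fold change and F. CPM, counts scaled to 1000000 per library, were computed here with TMM-scaled library sizes, and per-kb values with GENCODE M21 principal transcripts. Ratios were compared by exact two-sided permutation tests. DESeq2 1.42.0, limma-voom 3.58.1, other scalings, no filter, a replicate block and leaving out each heart were alternatives. The procedure was also run on counts simulated from the means and spreads that it fitted to these data. Such counts share the assumptions of the fit, so no support is drawn from them.

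The 9 genes and the lists were chosen with earlier results of these data known. Named genes outside the 9 are, per list, up to 2 called late in each direction with the smallest p, and the 5 genes most like Tufm. The labels number the libraries within each group but do not say outright that each is a separate animal, and p-values therefore cover only the spread among these samples, which may be technical. Every library differed from the others of its group by a chi-square per gene of 3.88 or more.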

Additional observations from a re-analysis of the deposited data

Results flagged for a closer look

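The change of Tufm differed between the times, with a late minus early difference of -1.50 on the log2 scale (adjusted p = 2.54e-07), and so did those of Mtif2 (-0.68, adjusted p = 0.000618), Mtrf1l (-0.58, adjusted p = 0.00937) and Gfm1 (-0.22, adjusted p = 0.0489). Each time has its own table, and levels were compared within tables only. In early controls, Tsfm in replicate 3 (33.5 CPM) and Mtif2 in replicate 1 (50.4 CPM) lay far from the other 3 hearts of the group by Dixon's criterion. These are 2 of 18 early groups checked, where chance flags about 1 in 20 groups.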

How the results depend on the processing

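No factor was called early in any of 16 alternatives. Late, 4 factors were called, 8 with upper-quartile scaling, 5 with total counts, and 3 to 5 when 1 heart was left out. For the difference between times 4 were called, 8 with upper-quartile scaling, 6 with total counts, and 3 to 5 without 1 heart. Upper-quartile scaling lowered the median late change of all genes from -0.02 to -0.19, and it changed the difference calls over all genes from 4342 higher and 4561 lower to 3328 and 5570. Relative to the median of all genes, the late change of Tufm was -1.64 with both scalings and that of Gfm2 0.07. Of the factors' fold changes, 9 changed sign, none of them called. These were Gfm1 early (0.0189 with cKO replicate 4 as control, from -0.0426 to 0.00489 without 1 heart), Mtif2 (0.00417) and Mtrf1l (0.0466) early with that label, Mtrf1l from -0.116 to 0.000551 and Mtrf1 from -0.0959 to 0.0199 early without 1 heart, and Gfm2 with upper-quartile scaling (-0.115 late, -0.0718 in the difference) and total counts (-0.0202 late). With cKO replicate 4 as control, the early ratio differences changed sign for Tufm to Tsfm (-0.00468), Mtif2 to Mtif3 (0.0521) and Mtrf1 to Mtrf1l (-0.0764). Without 1 heart they ranged from -0.0523 to 0.0426 for Mtif2 to Mtif3 and from -0.0734 to 0.0758 for Mtrf1 to Mtrf1l. Over all genes, 83 were called early, 176 by DESeq2, 388 with no filter and 162 with replicate 4 as control. Without 1 heart 45 to 181 were called, and the 181 were without cKO replicate 4. The cause of these changes was not tested. Counts and medians of the other gene lists were computed with TMM scaling alone.

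The replicate numbers did not pair the hearts, since same-numbered cKO and control hearts had correlations of deviations from -0.09 to -0.04 early and from -0.41 to -0.06 late. With the replicate block 0 factors were called early, 4 late and 3 in the difference, where Gfm1 was lost (adjusted p = 0.137). Depth limits the rarest factor, Mtrf1l, at 142 to 197 counts early and 174 to 318 late.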
